A study of Mus musculus and Mus musculus
Oryx dammah with 30 samples.

Results

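The proteasome genes were taken as every protein-coding gene whose name began with Psm, followed by one of the letters a to e and a number. The rule found 44 genes in each of the 3 mouse tables, out of 53023 genes listed in the four-cell and replication tables and 55364 in the two-cell table. By role they were 8 genes of the α ring, 7 of the β ring, 4 inducible or tissue-specific β subunits, 6 ATPases and 3 other subunits of the base, 8 lid subunits, 3 assembly chaperones and 5 activators. They lie on 16 chromosomes. Only 3 pairs are close neighbours: Psmb5 and Psmb11 (3410 bases apart) and Psme1 and Psme2 (5911 bases) on chromosome 14, and Psmb9 and Psmb8 (9956 bases) on chromosome 17 of mm10.

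The proteasome is the protease that degrades ubiquitin-tagged proteins in the cytosol and nucleus. Its core is a barrel in which rings of β subunits, some of them proteolytic, lie between rings of α subunits that gate the entrance. A regulatory particle caps the barrel: the ATPases of its base unfold the substrate, other base subunits bind ubiquitin, and the lid removes the ubiquitin chain. The Psme proteins are alternative caps, and Psmb8, Psmb9 and Psmb10 replace proteolytic β subunits in the immunoproteasome. In early mouse embryos, proteasomal degradation removes maternal proteins while the embryonic genome is being switched on.

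The study fused C2C12 cells, an immortalized myoblast line of C3H origin, with IVF embryos of C57BL/6 oocytes and DBA/2 sperm, and asked which genes RNA polymerase II transcribed after nuclear transfer (NT). All groups were cultured in 0.1 µg/ml demecolcine, which arrests division. In the four-cell experiment, NT at 46 hpi (hours post insemination) was followed by culture to 70 hpi with α-amanitin, an inhibitor of RNA polymerase II, or without it, in 3 libraries each of 3 pooled embryos. In the two-cell experiment, C2C12 cells were transferred at 21 hpi (early, cultured to 45 hpi) or 30 hpi (late, cultured to 54 hpi), with 5 embryos per library and 3 libraries per stage and α-amanitin state. The table names its two-cell columns NT, Am, R and RAm, 3 libraries each. NT and R are libraries without α-amanitin and Am and RAm libraries with it, but which pair is early and which is late is not given in the sources used here. Groups D and DR of the replication experiment (3 libraries each of 4 embryos) were meant to compare NT before and after DNA replication at the four-cell stage, by transfer at an earlier or later hour. Which letter marks which is not given either, so no direction in those terms is reported. Every library mixes embryo RNA with RNA of the fused donor nuclei, and in such bulk samples fewer cells and less RNA per cell cannot be told apart.

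Values are FPKM, fragments per kilobase of gene, scaled to the total fragments counted in the library. Libraries held 1136771 to 3101002 counted reads in the four-cell table, 4712268 to 10503779 in the two-cell table and 2603946 to 19181387 in the replication table. The RAm libraries stood apart. ERCC spike-in RNA took 8.77 to 11.3% of their reads, against 6.54 to 8.93% in Am, 3.15 to 6.26% in NT and 2.38 to 2.81% in R. A set of 5 gene copies resembling mitochondrial genes took 38.0 to 41.9% of reads in RAm, 19.8 to 23.4% in Am, 8.49 to 16.3% in NT and 7.11 to 9.67% in R, and 20573 to 22351 genes were above 0 in RAm against 27454 to 27840 in R. Of 10 embryo and oocyte markers, all 10 reached 1 FPKM in every library of NT, Am and R and 9 did so in RAm, with summed levels of 1633 to 3593 FPKM in RAm, 6952 to 8135 in Am, 8507 to 12376 in NT and 7483 to 9149 in R. Dppa3 carried most of the sum in NT, Am and R (means of 7977 FPKM in R and 943 in RAm), and 7 of the 10 markers went the other way, with a higher mean in RAm than in R, 6 of them called (Obox5, Nlrp5, Ooep, Gdf9, Oosp1 and Bmp15). Between Am and NT, 8 of 10 had the higher mean in Am, 4 of them called. Of 10 myoblast markers, 5 (Myod1, Myog, Myf5, Cdh15 and Tagln) were at 0 in all RAm libraries, and the summed level was 40.1 to 51.0 FPKM in RAm, 66.8 to 91.4 in Am, 69.8 to 433 in NT and 11.7 to 77.4 in R. The part of these library differences in the results below was not tested.

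Promoter windows of 3 members are shown because these genes span the range of the two-cell results. Psmd14 had the largest difference between R and RAm among the members, Psmb5 had the largest among members whose window carries the motif searched for, and Psme4 carries the motif but was not called higher in R unless libraries were scaled to the spike-ins. Each window runs from 250 bases before to 20 bases after the start of the RefSeq transcript on GRCm38.p6, and is printed 5′ to 3′ on the strand of the gene. Capitals mark a match on either strand to TGACNNNGC, the core of the antioxidant response element, which members of the Nfe2l family bind.
Psmd14 (chr2:61711444-61711713, + strand): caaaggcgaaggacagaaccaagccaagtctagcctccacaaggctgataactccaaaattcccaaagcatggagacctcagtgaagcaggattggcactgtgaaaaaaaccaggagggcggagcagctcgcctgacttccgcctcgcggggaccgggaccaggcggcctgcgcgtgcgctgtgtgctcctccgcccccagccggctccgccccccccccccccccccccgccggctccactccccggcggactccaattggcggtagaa
Psmb5 (chr14:54617976-54618245, − strand): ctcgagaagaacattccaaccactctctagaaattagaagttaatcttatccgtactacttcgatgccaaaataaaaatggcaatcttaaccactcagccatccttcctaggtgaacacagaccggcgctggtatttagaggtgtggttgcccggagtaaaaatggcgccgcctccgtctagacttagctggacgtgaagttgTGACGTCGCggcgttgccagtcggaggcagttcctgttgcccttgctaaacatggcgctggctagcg
Psme4 (chr11:30771525-30771794, + strand): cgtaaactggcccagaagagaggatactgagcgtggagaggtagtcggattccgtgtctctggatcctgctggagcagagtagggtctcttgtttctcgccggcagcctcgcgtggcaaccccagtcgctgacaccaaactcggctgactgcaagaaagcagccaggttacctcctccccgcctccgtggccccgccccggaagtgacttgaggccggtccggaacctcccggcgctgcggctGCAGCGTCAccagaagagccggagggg
The Psmb5 match starts 47 bases before the transcript start, and the Psme4 match, on the opposite strand, 7 bases before it. The Psmd14 window holds none.

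Proteasome transcripts were far lower in the RAm libraries than in any other two-cell libraries. The 44 members summed to 3918 ± 283 FPKM in R and 398 ± 51.7 in RAm (mean ± SD, n = 3), a 9.85-fold difference, and to 3568 ± 512 in NT and 2591 ± 161 in Am, a 1.38-fold difference. Scaled to the spike-ins, the differences were 39.8-fold and 2.54-fold. As a share of the FPKM of all nuclear protein-coding genes, the members made up 1.35 to 1.49% in R, 0.344 to 0.412% in RAm, 1.24 to 1.5% in NT and 1.13 to 1.20% in Am. The RAm share was thus below that of every other two-cell library also within coding transcripts. All 32 tested subunits of the core, base and lid were called higher in R than in RAm, as were 60.5% of all genes tested. Of the activators, Psme2 and Psme2b differed by less (0.69 and 0.87 on the log2 scale) and Psme4 was not lower in RAm, except after spike-in scaling.

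Changes were tested with limma on log2(FPKM + 1), a scale that understates the change of low genes. Tested were all genes that reached 1 FPKM in at least 6 of the 12 libraries, or in 3 of the 6 libraries in fits of 1 set alone. Adjusted p-values are Benjamini-Hochberg values over all genes tested, and they measure the spread between these embryo pools. The pooled test has no term for the set, so there the spread includes the difference between the sets (NT with Am, and R with RAm). More members were called with the set as a term, as given in the closing section. With both sets pooled (6 libraries against 6), 28 of the 40 members tested were higher without α-amanitin and 0 were lower, against 44.0% higher and 8.60% lower among the 13531 genes tested. At least 4-fold changes (DEGs) were 14 of 40, against 14.0% of all genes, and 13 members had groups that did not overlap in this direction, against 18.8%. The members' median log2 change was 1.57 and that of all genes 0.83. By role, the pooled test called 7 of 7 α genes, 5 of 7 β genes, Psmb10, 5 of 6 ATPases, 2 of 3 other base subunits, 7 of 8 lid subunits, 1 of 3 chaperones and 0 of 5 activators. Without the filter on low values the pooled test called 13 members higher, beside 5517 of 38827 genes. Without library RAm2 it called 17, beside 4767 of 14262 genes, and without RAm3 18, beside 4771 of 14269.

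The 2 sets contributed unequally. In R and RAm alone, 39 of 40 members were higher without α-amanitin, 31 of them at least 4-fold, against 60.5% and 33.0% of the 14387 genes tested. Of all genes 16.4% were lower, and 0 members were. In NT and Am alone, 7 of 40 members were higher (Psma2, Psma5, Psma7, Psmc1, Psmc2, Psmd6 and Psmd7), against 12.7% of 14285 genes, and 0 were lower, against 4.18%. The members' median log2 change was 2.68 in R and RAm (all genes 1.31) and 0.34 in NT and Am (all genes 0.26). The difference of these changes, tested as an interaction, was called larger in R and RAm for 36 of 40 members, against 44.5% of all genes, and smaller for 0, against 7.32%. Psmd10, Psme1, Psme3 and Psme4 were the 4 members without a called difference. NT and Am, and R and RAm, share no library.

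**Figure D1:**
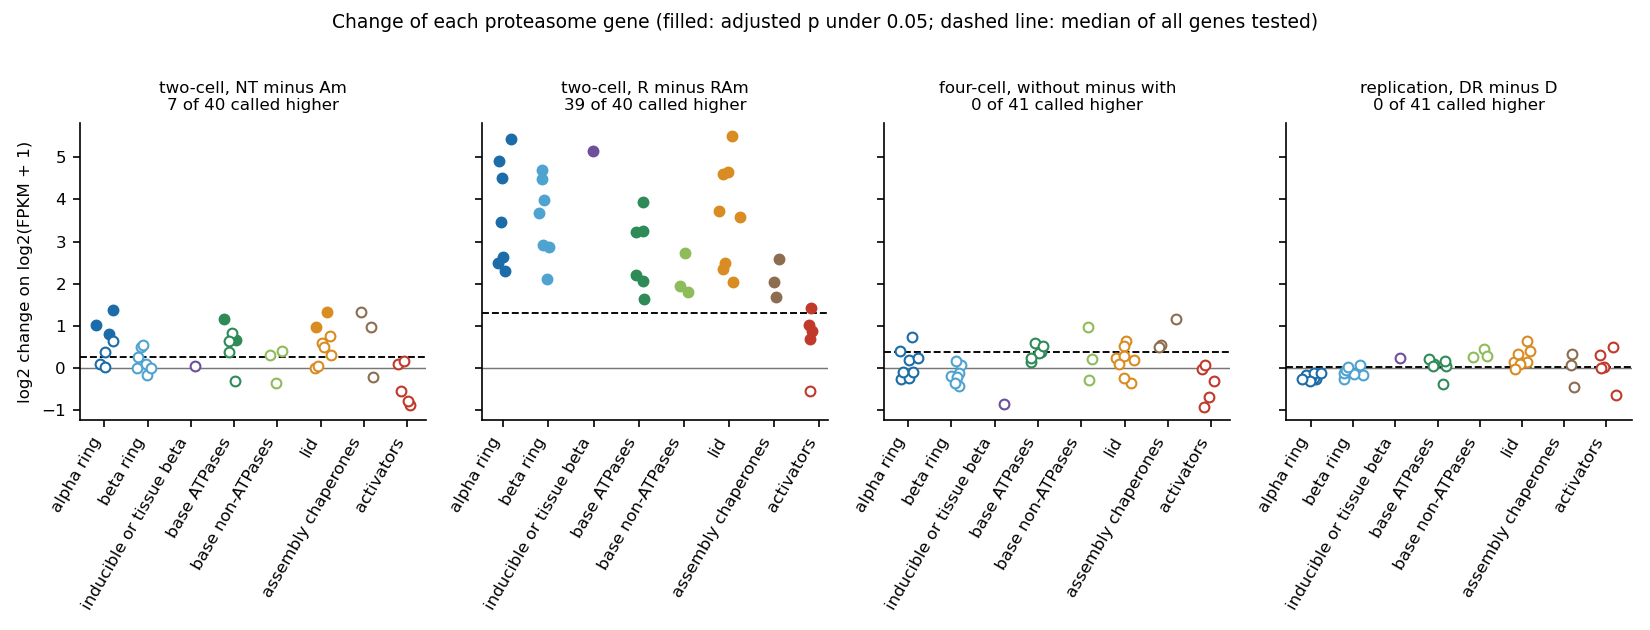
Log2 change of each tested proteasome gene on the log2(FPKM + 1) scale (y axis), by role (x axis), in the 2 two-cell sets, the four-cell experiment and the replication experiment. Filled points had an adjusted p under 0.05 and the dashed line is the median of all genes tested; 39 of 40 members were called higher in R against RAm, 7 of 40 in NT against Am, and 0 of 41 in each of the other experiments.

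The α ring, which forms the gate of the barrel, was called in all 7 constitutive members in the pooled test, with log2 changes of 1.29 to 3.04. That test called 44.0% of all genes higher. Psma6, on chromosome 12 from 55384222 to 55418454 of mm10, was the most abundant member in every library outside RAm. Psma6 was at 762, 544 and 561 FPKM in NT, 419, 390.3 and 379 in Am, 808, 666 and 728 in R and 29.1, 7.44 and 17.7 in RAm. Its RAm values rest on about 339, 81 and 153 reads, worked back from the FPKM, gene length and library total, and lay below every other library (log2 change 5.45, SE 0.43, adjusted p = 3.29e-05 for R against RAm, limma). In NT against Am the log2 change was 0.63 (adjusted p = 0.0539), although the libraries did not overlap. Psma4 stood at 124, 131 and 142 FPKM in NT, 129.6, 141 and 119 in Am, 163, 173 and 176 in R and 3.81, 5.06 and 5.4 in RAm. NT and Am overlapped for Psma4, with a log2 change of 0.03 and a 95% interval of −0.37 to 0.43, while R exceeded RAm by 4.91. Psma5 had its values at 171, 163 and 161 FPKM in NT, 74.3, 75.7 and 44.3 in Am, 163, 139 and 212 in R and 9.2, 19.4 and 0.993 in RAm. Here both sets were called, with 1.38 for NT against Am (adjusted p = 0.0124) and 4.51 for R against RAm (adjusted p = 0.00105). Psma5 is uncertain, because the pseudogene Psma5-ps was listed at 50.2 to 57.4 FPKM in NT, 14.6 to 26.6 in Am, 47.0 to 69.4 in R and 0.176 to 5.97 in RAm. The other pseudogenes of members stayed at or under 4.37 FPKM. Psma2 and Psma7 were also called in NT against Am (0.79 and 1.02), while Psma1 and Psma3 were called in R against RAm and not in NT against Am; the interaction was called for all 7.

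The β ring carries the proteolytic sites, in Psmb5, Psmb6 and Psmb7. All 7 members were called higher in R than in RAm, as were 60.5% of all genes, with log2 changes of 2.10 to 4.71. In NT against Am 0 of 7 were called, against 12.7% of all genes higher, and the changes ran from −0.18 to 0.55. Psmb5 was at 145, 95.7 and 80.3 FPKM in NT, 140.2, 93 and 124 in Am, 148, 155 and 170.4 in R and 4.12, 5.26 and 5.97 in RAm. The R and RAm libraries were widely separated (log2 change 4.71, SE 0.21, adjusted p = 5.41e-06), whereas NT and Am overlapped, with a log2 change of −0.18 and a 95% interval of −0.80 to 0.45. Psmb4 was listed at 77.4, 73.9 and 46.4 FPKM in NT, 70.2, 66.3 and 56.6 in Am, 88.5, 71.5 and 70.1 in R and 0, 7.95 and 3.59 in RAm. Counted reads for Psmb4 in RAm were 0, about 137 and about 49, so 1 library sets much of the spread (log2 change 4.48, SE 0.72, adjusted p = 0.000799). Psmb1 stood at 134, 141 and 131 FPKM in NT, 100.002, 91.1 and 95.2 in Am, 117, 95.8 and 124 in R and 5.84, 7.35 and 5.37 in RAm. Psmb1 was called in R against RAm (3.98), and in NT against Am it did not overlap but missed the threshold (0.50, adjusted p = 0.0779). Psmb3 had its libraries at 60.4, 42.3 and 50.3 FPKM in NT, 54.3, 41.7 and 46.8 in Am, 56.8, 54.1 and 58 in R and 9.26, 16.4 and 12.3 in RAm. This was the β subunit with the smallest difference between R and RAm (2.10, adjusted p = 0.000164), and NT and Am overlapped. The pooled test, which had no term for the set, missed Psmb3 and Psmb6 with adjusted p-values of 0.0518 and 0.0563.

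Among the β subunits of the immunoproteasome and thymoproteasome, Psmb10 was the one that reached 1 FPKM in two-cell libraries. Psmb10 was at 22.7, 15.4 and 27 FPKM in NT, 34.9, 18.9 and 12.9 in Am, 38.3, 38.5 and 53 in R and 0.31, 0.399 and 0 in RAm. RAm stood at or near 0, on about 5, 6 and 0 reads, and the difference from R was called (log2 change 5.16, SE 0.27, adjusted p = 7.99e-06). The NT libraries lay within the range of Am (log2 change 0.04, 95% interval −0.84 to 0.93). The remaining immunoproteasome subunits and the cortical thymus subunit Psmb11 did not pass the filter. Psmb8 was listed at 0.265, 0.324 and 0.00975 FPKM in NT, 0, 0.121 and 0.55 in Am, 0.0152, 0 and 0.0403 in R and 0.798, 0 and 0.0423 in RAm. Psmb9 had its values at 0, 0.182 and 0 FPKM in NT, 0.174, 0.205 and 0.323 in Am, 0, 0.0824 and 0 in R and 0, 0 and 0 in RAm. Psmb11 stood at 0.00668, 0.0596 and 0.468 FPKM in NT, 0.0664, 0 and 0.423 in Am, 0.27, 0.423 and 0.79 in R and 0.0303, 0.0281 and 0.0597 in RAm. None of these reached 1 FPKM in any two-cell library. The testis-specific α subunit Psma8 was at 0 in all 6 α-amanitin (+) libraries, where a count of 0 allows up to 0.127 to 0.255 FPKM (3 reads, counting error only). Without α-amanitin, Psma8 stood at 1.49, 0.305 and 0.106 FPKM in NT and 0.495, 0.0403 and 0.574 in R, on about 29, 8 and 2 and about 12, 1 and 14 reads. The libraries with and without α-amanitin thus did not overlap, although the values of 0.106 and 0.0403 lie under that limit, and Psma8 did not pass the filter on low values and was not tested.

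**Figure D2:**
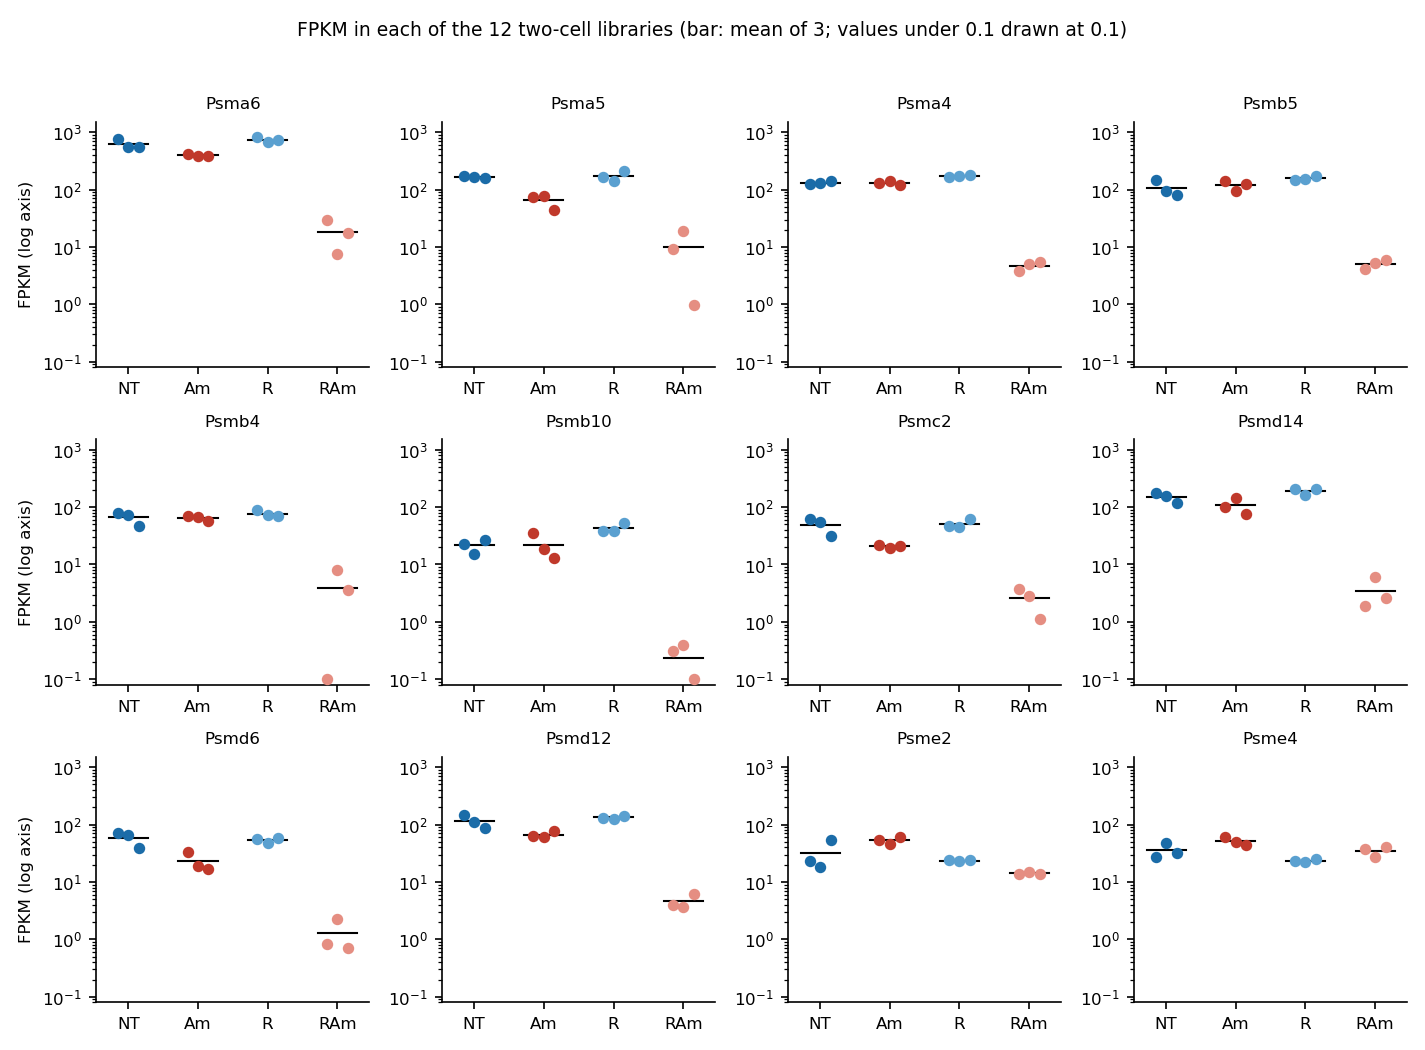
FPKM (log axis) of 12 members in each of the 12 two-cell libraries, in sets NT, Am, R and RAm. Points are libraries, bars the mean of 3, and values under 0.1 are drawn at 0.1; RAm lies below the other sets for the 10 core, base and lid genes shown, Psme2 differs by less (log2 change 0.69 for R against RAm) and Psme4 is not lower in RAm (after spike-in scaling it is).

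The ATPases of the base form the ring that unfolds substrates. All 6 were called higher in R than in RAm, as were 60.5% of all genes, with log2 changes of 1.63 to 3.95. In NT against Am, Psmc1 (0.67) and Psmc2 were called higher, against 12.7% of all genes. Psmc2 stood at 62.3, 54.5 and 31 FPKM in NT, 22.1, 19.1 and 21.3 in Am, 47.3, 45.7 and 61.1 in R and 3.74, 2.82 and 1.12 in RAm. RAm was lowest, then Am, and in neither set did the libraries with and without α-amanitin overlap (log2 change 3.95, SE 0.34, adjusted p = 4.38e-05 for R against RAm, and log2 change 1.15, SE 0.29, adjusted p = 0.0343 for NT against Am). Psmc5 was at 136, 107 and 70.9 FPKM in NT, 52.7, 62.5 and 56.4 in Am, 138, 103 and 117 in R and 16, 10.5 and 9.14 in RAm. Psmc5, the most abundant ATPase at the four-cell stage, did not overlap in either set, but only R against RAm was called (3.25; NT against Am 0.82, adjusted p = 0.0689). Psmc3 was listed at 33.2, 18.5 and 24.2 FPKM in NT, 30.9, 27.2 and 34.9 in Am, 17.4, 19 and 20.4 in R and 6.17, 2.35 and 9.99 in RAm. Each Am library exceeded 2 of the 3 NT libraries, and Psmc3 was the ATPase missed in the pooled test (0.66, adjusted p = 0.307). The other base subunits bind ubiquitin or the lid. Psmd4 had its values at 63, 53.1 and 25.9 FPKM in NT, 40.0, 32.3 and 34.8 in Am, 66, 61.5 and 47.9 in R and 13.1, 3.51 and 10.2 in RAm. Psmd2 stood at 16.1, 15.9 and 14.7 FPKM in NT, 18.5, 22.5 and 20.3 in Am, 17, 17.9 and 18.5 in R and 6.33, 1.37 and 5.58 in RAm. All 3 base subunits of this kind were called in R against RAm, and 0 of 3 in NT against Am, where Psmd2 was lower in each NT library than in each Am library without passing the test (−0.37, adjusted p = 0.27).

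The lid, which includes the deubiquitinase Psmd14, held the member with the largest difference between R and RAm on the log2(FPKM + 1) scale. By the ratio of FPKM itself, Psmb10, at or near 0 in RAm, differed by more. Psmd14 was at 172, 158 and 117 FPKM in NT, 101, 145 and 76.6 in Am, 203, 159.5 and 208 in R and 1.91, 5.94 and 2.61 in RAm. R exceeded RAm by 5.50 (SE 0.34, adjusted p = 1.5e-05), and NT overlapped Am (0.50, adjusted p = 0.246). Psmd6 stood at 71.7, 66.5 and 38.8 FPKM in NT, 33.5, 19.2 and 16.5 in Am, 55.3, 47 and 58.6 in R and 0.832, 2.27 and 0.715 in RAm. Psmd12 was listed at 148, 111 and 86.9 FPKM in NT, 63.8, 61 and 75.7 in Am, 129.9, 125 and 143 in R and 4, 3.63 and 6.16 in RAm. Psmd7 had its libraries at 362, 293 and 178 FPKM in NT, 139, 131 and 133 in Am, 353, 317 and 337 in R and 30.0, 20.9 and 22.7 in RAm. For these 3 structural lid subunits NT lay above Am in every library, and the change passed for Psmd6 (1.33, adjusted p = 0.0364) and Psmd7 (0.98, adjusted p = 0.0433) but not for Psmd12 (0.75, adjusted p = 0.0673). R exceeded RAm by 4.65, 4.60 and 3.74 for Psmd6, Psmd12 and Psmd7. Psmd3 was at 6.93, 6.65 and 3.58 FPKM in NT, 4.6, 3.27 and 2.37 in Am, 7.48, 8.96 and 6.88 in R and 0.135, 0.386 and 1.36 in RAm. Psmd3 was the lid subunit of lowest level, and it too was called in R against RAm (2.50, adjusted p = 0.000293). Over the 8 lid genes the R to RAm log2 changes ran from 2.03 to 5.50 and all 8 were called higher, against 60.5% of all genes. The NT to Am changes ran from 0.01 to 1.33 with 2 called higher, against 12.7%.

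Psmd5, Psmd9 and Psmd10 help assemble the base and leave the finished particle. Psmd9 stood at 6.37, 3.36 and 4.57 FPKM in NT, 1.43, 2.57 and 1.73 in Am, 6.61, 4.24 and 6.09 in R and 1.02, 0.516 and 0.336 in RAm. Psmd9 was the member with the smallest adjusted p in the pooled test (log2 change 1.5, SE 0.30, adjusted p = 0.0017) and the libraries with and without α-amanitin did not overlap across the 12. Psmd10 was listed at 16.6, 16.1 and 25.9 FPKM in NT, 3.9, 7.74 and 11.2 in Am, 9.39, 2.81 and 3.69 in R and 2.95, 0 and 0.39 in RAm. Each R library was below each NT library for Psmd10, and the interaction was not called (0.37, 95% interval −1.26 to 2.01). Psmd5 was called in R against RAm (2.59) and not in NT against Am (−0.21, adjusted p = 0.686).

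The activators open the α gate in place of the regulatory particle. Psme1 and Psme2 form the interferon-inducible cap, Psme3 the nuclear cap of the same family, and Psme4 a large single-chain cap. Psme4 was at 26.8, 47.9 and 32.2 FPKM in NT, 61.2, 49.5 and 44.6 in Am, 23.1, 22 and 25 in R and 37.8, 26.9 and 41.1 in RAm. R lay below RAm in every library, the reverse of the core genes, but it was not called (log2 change −0.55, SE 0.23, adjusted p = 0.0575) and the sign turned after spike-in scaling (1.36). NT against Am gave −0.56 (adjusted p = 0.188), and the interaction gave no called difference between the 2 sets (0.00, 95% interval −0.77 to 0.78). Its RAm values rest on about 2991, 1994 and 2408 reads. Psme2 stood at 23.5, 18.3 and 53.1 FPKM in NT, 54.6, 46 and 59.9 in Am, 23.7, 23.2 and 23.7 in R and 13.9, 15.2 and 13.7 in RAm. Psme2b was listed at 12.4, 8.27 and 29.1 FPKM in NT, 26.1, 22.2 and 29.8 in Am, 11.2, 12.6 and 13.4 in R and 5.63, 6.6 and 6.81 in RAm. Both were highest in Am and in the single library NT3, and R exceeded RAm by 0.69 (adjusted p = 0.0128) for Psme2 and 0.87 (adjusted p = 0.00785) for Psme2b. Psme2b is a near copy of Psme2, at 0.406 to 0.563 of the Psme2 level in all 12 libraries, so reads may be shared between them and their values are uncertain. Psme1 was at 15.8, 15.3 and 28.6 FPKM in NT, 17.2, 25.5 and 13 in Am, 14.2, 19.5 and 24.6 in R and 5.73, 15.6 and 7.54 in RAm. Psme3 had its values at 20.7, 22.8 and 12.3 FPKM in NT, 16.8, 13 and 18.4 in Am, 22.2, 16.9 and 22.2 in R and 10.5, 2.96 and 10.1 in RAm. Psme1 and Psme3 overlapped between NT and Am and were called in R against RAm (1.02, adjusted p = 0.0409, and 1.42, adjusted p = 0.0174). For Psme1 the R and RAm libraries overlapped too (14.2 FPKM in an R library, 15.6 in a RAm library). The 5 activators summed to 99.2 ± 8.51 FPKM in R and 73.3 ± 5.94 in RAm, a ratio of 1.35, against 14.6 for the α ring, 9.78 for the β ring, 6.94 for the ATPases and 17.6 for the lid. Scaled to the spike-ins, these ratios were 5.51, 57.3, 39.5, 28.5 and 71.6 in the same order.

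**Figure D3:**
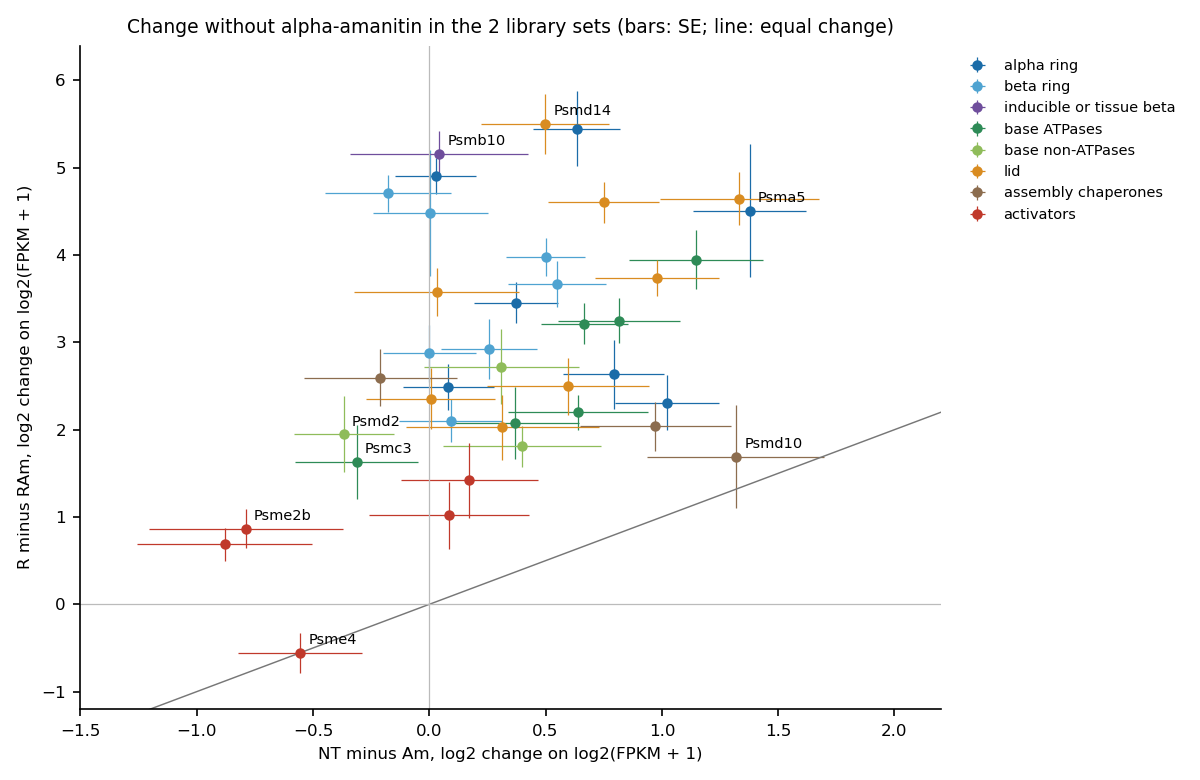
Log2 change of each of the 40 tested members in R against RAm (y axis) and in NT against Am (x axis), on the log2(FPKM + 1) scale, coloured by role. Bars are SE and the line marks equal change; 39 members lie above 0 on the y axis and Psme4, at −0.55 (1.36 after spike-in scaling), below it.

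Directions among the low-change members depended on how libraries were scaled. Scaled to the spike-ins, 38 of 40 members were higher in the pooled test, against 77.7% of all genes, with a median log2 change of 2.91 (all genes 1.79). In R against RAm the count was then 40 of 40, against 80.5%, with a median of 4.53 (all genes 2.52), and Psme4 also was higher (1.36). In NT against Am it was 18 of 40, against 31.5%, and the interaction was called for 39 of 40, against 61.1%. Scaling by the median of ratios sets libraries level over the genes above 0 in all of them. The pooled test then called 14 of 40 members higher, against 22.7%, and 3 lower (Psme2, Psme2b and Psme4), against 17.1%. In R against RAm 29 members were then higher, against 37.9%, and 2 lower (Psme2 and Psme4), against 27.3%, with a median of 1.39 (all genes 0.38). In NT against Am 1 member was higher, against 7.58%, and the interaction was called higher for 20 members, against 21.3%, and lower for 1, Psme4, against 18.3%. Psme2 and Psme4 thus lay on opposite sides of 0 in R against RAm under these scalings.

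**Figure D4:**
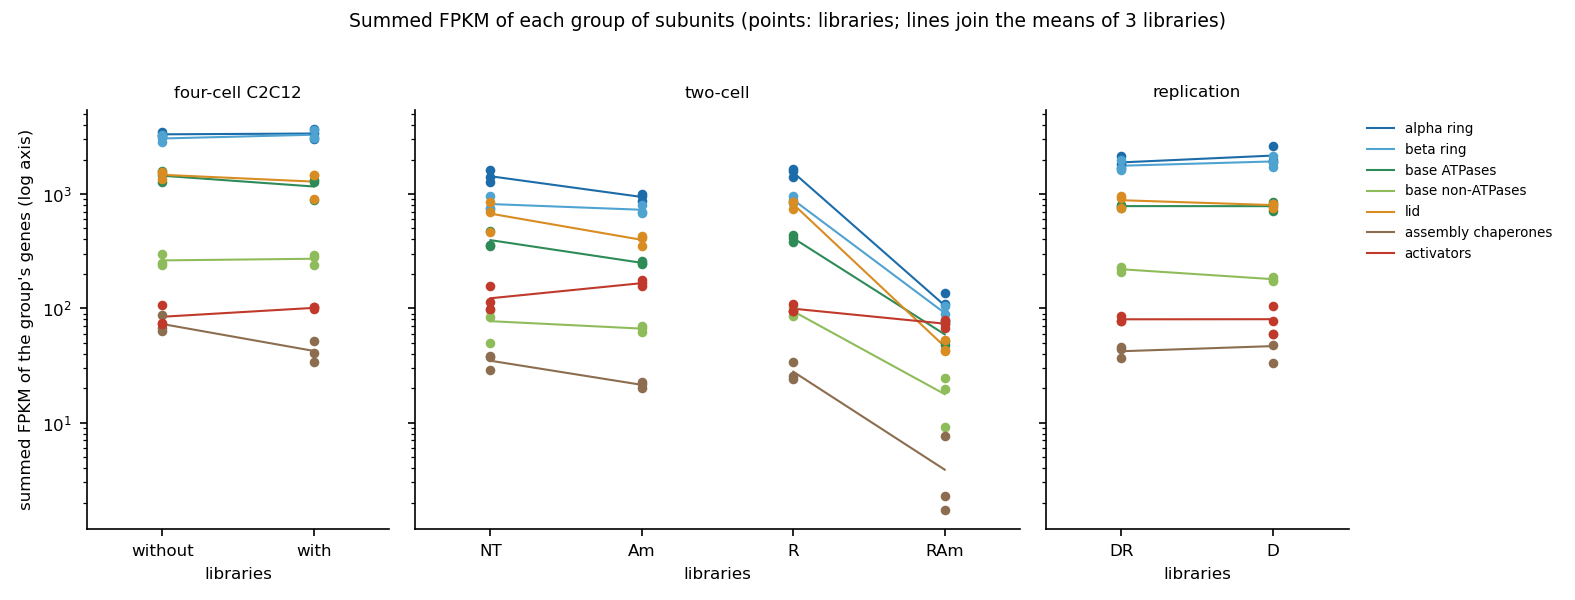
Summed FPKM (log axis) of each group of subunits in every library of the four-cell, two-cell and replication tables. Points are libraries and lines join the means of 3 libraries with and without α-amanitin, or of DR and D; between R and RAm the lines of the core, base and lid groups fall and the activator line falls least (99.2 against 73.3 FPKM).

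In four-cell NT embryos no proteasome gene was called between the α-amanitin states. The members summed to 9734 ± 410 FPKM without α-amanitin and 9574 ± 1146 with it (mean ± SD, n = 3), and to 2.63 to 2.81% and 2.24 to 2.96% of the nuclear protein-coding FPKM. Of the 41 members tested, limma called 0 higher, against 11.1% of the 9884 genes tested, and 0 lower, against 1.13%. The number of all genes called higher was itself unstable: it was 1093, and it became 673 with a pseudocount of 0.1, 275 of 22303 without the filter on low values and 284 of 10796 without library S7. At an unadjusted p under 0.05 it gave 4 members, against 28.9% of all genes: Psmd10 (1.15, adjusted p = 0.108), Psmb10 (−0.87, adjusted p = 0.123), Psma5 (0.73, adjusted p = 0.135) and Psmd1 (0.96, adjusted p = 0.147). By the median of ratios 10 members had an unadjusted p under 0.05, against 2822 of the 9884 genes. The libraries did not overlap for 16 of the 41 members, against 35.2% of all genes. Of these 7 were higher without α-amanitin, against 27.6% of all genes, and 9 were lower, against 7.56%. By the median of ratios 2 members were higher and 13 lower without overlap, against 2093 and 1319 of all 9884 genes. The log2 change was above 0 for 24 of 41 members and 6603 of the 9884 genes as deposited, and for 12 members and 5482 genes by the median of ratios. The members' median log2 change was 0.15 (all genes 0.37), and −0.17 (all genes 0.13) after scaling by the median of ratios. Leaving out any 1 of the 6 libraries kept the member count at 0. The embryo and oocyte markers summed to 8754 to 9943 FPKM without α-amanitin and 12181 to 16089 with it, and 5 of 10 reached 1 FPKM in all 6 libraries. Dppa3 made up most of these sums, and 8 of 10 markers had a lower mean without α-amanitin, with Zp3 called lower and Zfp42 called higher. The 10 myoblast markers summed to 19.7 to 93.1 FPKM without α-amanitin, with 5 at 0, and to 86.8 to 293 with it, mostly from Acta2 (means of 45.0 and 151 FPKM), and none was called. Mitochondrial genes took 5.76 to 6.09% of reads without α-amanitin and 11.4 to 19.0% with it, and their part in the result was not tested. No spike-ins are listed in the four-cell table, so a change in total RNA between the α-amanitin states could not be measured.

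Core genes again held the highest levels. Psma6 was at 1586, 1665 and 1346 FPKM in the α-amanitin (−) libraries and at 1738, 2052 and 1679.6 in the α-amanitin (+) libraries. Psmb1 stood at 1028, 1027 and 801 FPKM in the α-amanitin (−) libraries and at 960.3, 1011 and 755 in the α-amanitin (+) libraries. The 95% intervals of the change were −0.65 to 0.15 for Psma6 and −0.39 to 0.53 for Psmb1, on the FPKM as deposited. The Psma6 libraries did not overlap, lower without α-amanitin, and by the median of ratios its interval was −1.02 to −0.11 (adjusted p = 0.106). Psmb5 was listed at 269, 305 and 291 FPKM in the α-amanitin (−) libraries and at 347, 429.6 and 389 in the α-amanitin (+) libraries. The libraries without α-amanitin were all lower for Psmb5 (−0.43, adjusted p = 0.184). Psmb10 was at 19.8, 22.8 and 23.6 FPKM in the α-amanitin (−) libraries and at 26.9, 46.4 and 55.4 in the α-amanitin (+) libraries. This immunoproteasome subunit was also lower in each library without α-amanitin. Psmb3 stood at 137, 169.9 and 169.7 FPKM in the α-amanitin (−) libraries and at 130.3, 164 and 132 in the α-amanitin (+) libraries. Psmb3 had the lowest mean of the β ring over the 6 libraries, close to that of Psmb7 (which was lower in each α-amanitin (−) library), and its libraries overlapped. Psmb9 was listed at 0.84, 0.149 and 0 FPKM in the α-amanitin (−) libraries and at 0, 0 and 0 in the α-amanitin (+) libraries. Psmb8 and Psmb11 had 0 reads in all 6 libraries, which allows up to 0.354 to 0.965 FPKM for Psmb8 and 0.202 to 0.551 for Psmb11. Psma8 had its values at 0.518, 6.13 and 1.91 FPKM in the α-amanitin (−) libraries and at 0.952, 1.56 and 6.69 in the α-amanitin (+) libraries. Psma8 varied within each group over the same range. By sign, 2 of 7 β genes and 4 of 8 α genes had values above 0, with no call, and by the median of ratios 0 of 7 and 2 of 8 did.

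Subunits of the regulatory particle gave no call, and their signs depended on the scaling. All 6 ATPases had log2 changes above 0, from 0.15 to 0.58, on the FPKM as deposited, and 4 of 6 did by the median of ratios. Psmc5 was at 449.6, 439 and 521 FPKM in the α-amanitin (−) libraries and at 496, 428 and 293 in the α-amanitin (+) libraries. Psmc3 stood at 58.3, 75.3 and 84.4 FPKM in the α-amanitin (−) libraries and at 55.7, 67.8 and 46.8 in the α-amanitin (+) libraries. Both overlapped. The lid gave 6 of 8 values above 0 as deposited and 2 of 8 by the median of ratios. Psmd14 was listed at 285, 278 and 231 FPKM in the α-amanitin (−) libraries and at 319, 336 and 145 in the α-amanitin (+) libraries. Library S8 with α-amanitin was the low one, and the 95% interval for Psmd14 was −0.67 to 0.82. Psmd7 stood at 575, 552 and 422 FPKM in the α-amanitin (−) libraries and at 492, 461 and 199.6 in the α-amanitin (+) libraries. Psmd3 was at 23.7, 28.3 and 18.5 FPKM in the α-amanitin (−) libraries and at 18.2, 15.9 and 10.6 in the α-amanitin (+) libraries. Psmd7 was the most abundant and Psmd3 the least abundant lid gene, and of these 3 lid genes only Psmd3 did not overlap (0.63, adjusted p = 0.254). Psmd4 was listed at 162, 197 and 154 FPKM in the α-amanitin (−) libraries and at 212, 219 and 195 in the α-amanitin (+) libraries. Psmd2 had its values at 30.9, 46.2 and 44 FPKM in the α-amanitin (−) libraries and at 37.8, 33.5 and 31.3 in the α-amanitin (+) libraries. Neither base subunit was called. Psmd10 was at 43.9, 25.7 and 31.2 FPKM in the α-amanitin (−) libraries and at 22.4, 16.2 and 7.71 in the α-amanitin (+) libraries. Psmd9 stood at 15.8, 17.6 and 13.9 FPKM in the α-amanitin (−) libraries and at 14.8, 9.83 and 8.77 in the α-amanitin (+) libraries. All 3 assembly chaperones had values above 0 (0.49 to 1.15), and Psmd10 and Psmd5 did not overlap.

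Activators were low at the four-cell stage, at 84.3 ± 19.3 FPKM summed without α-amanitin and 101 ± 2.62 with it. Psme1 was at 33.8, 42.1 and 65.5 FPKM in the α-amanitin (−) libraries and at 56.3, 58.9 and 53.9 in the α-amanitin (+) libraries. Psme2 stood at 6.22, 4.34 and 6.03 FPKM in the α-amanitin (−) libraries and at 8.77, 7.98 and 20.3 in the α-amanitin (+) libraries. Psme2b was listed at 1.05, 0.653 and 0.552 FPKM in the α-amanitin (−) libraries and at 2.31, 1.05 and 2.26 in the α-amanitin (+) libraries. Psme2 and Psme2b were lower in every library without α-amanitin, with log2 changes of −0.93 (adjusted p = 0.201) and −0.69 (adjusted p = 0.259). Psme2b rested on 2, 1 and 1 reads without α-amanitin and 6, 1 and 3 with it, too few to show a difference. Psme3 had its values at 17.1, 18.2 and 27.8 FPKM in the α-amanitin (−) libraries and at 24.8, 19.7 and 18.6 in the α-amanitin (+) libraries. Psme4 was at 14, 9 and 6.73 FPKM in the α-amanitin (−) libraries and at 10.4, 10.2 and 6.98 in the α-amanitin (+) libraries. Psme3 and Psme4 overlapped, with 95% intervals of −0.75 to 0.71 and −0.83 to 0.95.

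The replication experiment gave no called change either. The members summed to 5671 ± 495 FPKM in DR and 5991 ± 698 in D (mean ± SD, n = 3). Limma called 0 of 41 members, against 0% of the 14570 genes tested, and at an unadjusted p under 0.05 it gave 0 members, against 6.16% of all genes. The groups did not overlap for 6 members (Psmc3, Psmc4, Psmd1, Psmd4 and Psmd13 higher in DR, Psma7 lower), against 12.2% of all genes. The members' median log2 change, DR minus D, was 0.03. Spike-in scaling moved it to −1.57 and that of all genes to −1.41, but spike-ins took 0.0181 to 0.776% of reads within D and 0.0448 to 0.4935% within DR, and the intervals were then wide (Psmc2, −6.24 to 3.12). Psma6 was at 697, 716 and 949 in DR and 799.5, 679.7 and 1128 in D. Psmb1 stood at 487, 449.9 and 564 in DR and 509, 626 and 672 in D. For Psmd14 the values were 159.8, 113 and 151 in DR and 119.6, 153 and 159 in D. These 3 genes overlapped between the groups, with 95% intervals of −0.69 to 0.44, −0.71 to 0.18 and −0.56 to 0.50. Psme4 was at 6.85, 7.74 and 12.8 in DR and 23.8, 12.1 and 10.5 in D. Its log2 change of −0.66 was the lowest value among the members, and it was not called (adjusted p = 0.797). The α genes all had values below 0 (−0.32 to −0.11) and 7 of 8 lid genes values above 0 (up to 0.64), on the FPKM as deposited. Of all 14570 genes tested, 7498 were above 0 and 7072 below. Of the 10 embryo and oocyte markers 7 reached 1 FPKM in all 6 libraries, 5 had a higher and 5 a lower mean in DR, and none was called. Their sum, 3390 to 4047 FPKM in DR and 4605 to 5757 in D, was nearly all Dppa3, and myoblast markers summed to 28.1 to 52.7 FPKM in DR and 22.8 to 83.0 in D.

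The other members followed library by library in FPKM gave no call either. Psmb3 was at 119.8, 108 and 114 in DR and 121, 109 and 161 in D. Psmb10 stood at 12.3, 7.45 and 17.8 in DR and 9.58, 4.65 and 20.6 in D. The spread within each group exceeded the difference for Psmb10 (log2 change 0.24, SE 0.53). Psmb8 was listed at 0, 0 and 0 in DR and 0.121, 0 and 0.577 in D. Psmb9 had 0.196, 0.129 and 0 in DR and 0.271, 0 and 0.666 in D. Psmb11 gave 0.36, 0.442 and 0 in DR and 0.103, 0.218 and 0.254 in D. These 3 subunits did not reach 1 FPKM in any replication library. Psma8 was at 2.37, 0.278 and 1.59 in DR and 0.682, 1.69 and 3.39 in D, with overlap. Psmc5 stood at 266, 254 and 251 in DR and 225, 252 and 268 in D. Psmc3 was at 51.1, 46.8 and 51.7 in DR and 40.0, 46.7 and 42.4 in D. All DR values of Psmc3 exceeded those of D (0.21, adjusted p = 0.849), and those of Psmc5 did not separate. Psmd4 was listed at 138, 129 and 137 in DR and 116, 97.6 and 120.1 in D. Psmd2 stood at 54.4, 48.7 and 35.5 in DR and 28.3, 57.7 and 22.3 in D. The ubiquitin receptor Psmd4 was higher in each DR library (0.28, adjusted p = 0.808), and the scaffold Psmd2 varied widely in D. Psmd7 was at 334, 256 and 345 in DR and 279, 265 and 308 in D. Psmd3 gave 35.9, 25.5 and 18.7 in DR and 19.5, 21.7 and 9.88 in D. Psmd7 and Psmd3 overlapped between the groups, and Psmd3 had the largest positive value of any member (0.64, adjusted p = 0.797). Psmd10 was at 10.6, 21.9 and 17.5 in DR and 15.1, 19.8 and 37.9 in D. Psmd9 stood at 13.1, 14.6 and 11.7 in DR and 9.63, 18.3 and 10.8 in D. Neither chaperone separated the groups. Psme1 was listed at 37.2, 35 and 32.9 in DR and 27, 56.6 and 27.2 in D. Psme2 had 8.87, 9.2 and 7.18 in DR and 5.57, 7.03 and 7.24 in D. Both genes overlapped between DR and D. Psme2b had 3.26, 3.93 and 3.21 in DR and 2.86, 3.21 and 4.63 in D, or 0.367 to 0.639 of Psme2. Psme3, the remaining activator, stood at 21.6, 29.2 and 21.2 in DR and 18.1, 24.7 and 10.2 in D. Psme2b and Psme3 overlapped as well.

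The order of the members by level was close in most groups. Across the 40 members tested in all 3 tables, the Spearman correlation of mean levels was 0.972 between the four-cell groups, 0.968 between NT and R, 0.88 between four-cell embryos without α-amanitin and NT, and 0.55 between R and RAm. These are descriptions across genes of one family, and the levels of a table share its gene lengths. The tables were normalized separately, and gene lengths differ between them for Psmb1, Psma8 and Psmb8, and by 1 base for Psma7 and Psmb9. Over the 38 members of equal length in all tables the correlations were 0.97, 0.973, 0.879 and 0.552 in the same order. Side by side, Psma6 led in the four-cell, NT, Am, R and replication libraries. Psme4 was at 6.73 to 14.0 FPKM in the four-cell libraries, 6.85 to 23.8 in the replication libraries and 22 to 61.2 in the two-cell libraries, and Psme2 and Psme2b also had their highest levels in the two-cell table. In the RAm libraries Psme4 stood among the most abundant members, above Psma6 in each.

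Other genes of the pathway, a list of 32, were examined beside the members. In R against RAm 23 of 30 tested were higher, against 60.5% of all genes, and 1 was lower, against 16.4%. In NT against Am 4 of 31 were higher, against 12.7%, and 0 lower, against 4.18%. In the pooled test 15 of 31 were higher, against 44.0%, and 2 lower (Ecpas and Ube3c), against 8.60%. The interaction was called higher for 17 of 31, against 44.5%, and lower for 1 (Ecpas), against 7.32%. Scaled by the median of ratios, R against RAm gave 11 higher and 8 lower, against 37.9% and 27.3% of all genes. The interaction then gave 3 higher and 8 lower, against 21.3% and 18.3%. All 5 core assembly factors tested (Pomp and Psmg1 to Psmg4) were called higher in R than in RAm. Psmg2 averaged 27 FPKM in R and 0.823 in RAm (log2 change 4.2, adjusted p = 0.00018), and 36.1 in NT and 9.41 in Am (1.83, adjusted p = 0.0272). Psmg3 followed with 4.10 and 1.85, both called. Pomp, which is needed for β ring maturation, gave 2.63 in R against RAm (adjusted p = 0.000383) and 0.12 in NT against Am (adjusted p = 0.697). Usp14, the deubiquitinase bound to the base, gave 3.18 and 0.94 (adjusted p = 4.13e-05 and 0.0546). Zfand5, a proteasome activator, was among the 4 genes called in NT against Am (2.28, adjusted p = 0.0114), and was higher in R than in RAm (4.45, adjusted p = 1.24e-05). Ecpas, a scaffold that binds proteasomes, was lower in R than in RAm (−1.5, adjusted p = 0.00566). Nfe2l1, the factor that raises proteasome genes when the protease is inhibited, averaged 2.19 FPKM in R and 3.07 in RAm and was not called (−0.31, adjusted p = 0.339).

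At the four-cell stage 6 of 31 pathway genes were called higher without α-amanitin and 0 lower, against 11.1% and 1.13% of all genes. The count was 2 with a pseudocount of 0.1 (673 of 9884 genes), 2 without the filter on low values (275 of 22303 genes) and 3 by the median of ratios (758 of 9884 genes). Among the 6 were Akirin2 (2.95, adjusted p = 0.00933), which carries proteasomes into the nucleus, Zfand5 (2.42, adjusted p = 0.0109), the ubiquitin-activating enzyme Uba6 (1.68, adjusted p = 0.048), Nfe2l2 (1.66, adjusted p = 0.0469) and the shuttle factor Ubqln2 (1.38, adjusted p = 0.0316). Ubqln2 reached 1 FPKM only without α-amanitin (0 to 0.289 FPKM with it), so it passed the filter on low values through its high group alone. Akirin2 averaged 27.8 FPKM without α-amanitin and 3.08 with it. Adrm1 and Sem1, subunits outside the naming pattern, were not called (0.25 and −0.11). No pathway gene was called in the replication experiment.

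The motif TGACNNNGC was searched on both strands in the RefSeq promoter windows, 250 bases before to 50 after the start. Of the 44 members 37 had an entry, with 40 windows. The motif was in 6 of these windows (15%), those of Psmb5, Psmb6, Psmc6, Psmd9, Psmd12 and Psme4, against 12.4% of all 32851 windows. The median log2 change of R against RAm was 2.54 over the 6 members with it (−0.55 to 4.71) and 2.61 over the 28 tested members without it (0.69 to 5.50). The highest value in each group belongs to Psmb5 and Psmd14, whose windows are printed above.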

How the data were processed

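RNA was amplified from pooled embryos (SMART-seq v4), sequenced in paired ends and processed by the authors with Trimmomatic, Trim Galore, cutadapt, STAR and featureCounts on mm10; versions are not given in the sources used here. The authors deposited FPKM per gene, as 1 table per experiment, with no spike-in scaling. For calling differential genes the paper itself scaled to counts of the ERCC spike-ins. FPKM compare shares within a library, so a change in total RNA does not show in them. Of the 30 samples in the series, the 24 libraries of the 3 mouse tables were used. The oryx table and 4 columns that match no sample were not used.

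FPKM were tested as log2(FPKM + 1) with limma 3.58.1 (trend) in R 4.3.3, with Benjamini-Hochberg adjustment over all genes tested. Genes needed at least 1 FPKM in as many libraries as the smaller group of the fit holds. That number was 6 in the two-cell fits of all 12 libraries and 3 in the two-cell fits by set. It was 3 in the other tables, and fewer where leaving out a library made a group smaller. A gene was called at an adjusted p under 0.05, and a DEG also changed at least 4-fold. The scripts were tested on simulated data. Reads were worked back from the step of the FPKM values; all values came out whole (within 0.02 reads) in the four-cell table, and 40.8 to 50.8% elsewhere, so reads there are approximate. Depth limits the low genes, and floors cover counting error only.

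Members, roles and pathway genes were chosen with earlier results of these data known. Values in every library are given for called members (at most the 12 with the largest change per comparison), for the highest and lowest member of each role at the four-cell stage, and for Psma8, Psmb8 to Psmb11 and Psme1 to Psme4. Alternatives were other scalings, pseudocount 0.1, no filter, a replicate block and each library left out. The fits by two-cell set and the interaction were added after the data were seen. Promoter windows are those of RefSeq on GRCm38.p6, the assembly that mm10 names. One gene of the pathway list is not reported here by name.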

Additional observations from a re-analysis of the deposited data

Results flagged for a closer look

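In groups of 6 two-cell libraries, the highest or lowest library lay far from the other 5 in 6 of 74 groups examined. Chance alone does this in about 1 in 20 independent groups of like libraries. Each group here joins libraries of both sets, and the sums share genes with single members. That rate therefore does not apply to this count. Library NT3 was the distant one for Psme2 (53.1 FPKM), Psme2b (29.1 FPKM), the summed activators (155 FPKM) and the summed base subunits other than ATPases (49.2 FPKM). Psme2 and Psme2b are near copies, and both enter the activator sum. Library NT1 stood apart for Psma8, at 1.49 FPKM, and library Am3 for Psmb11, at 0.423 FPKM.

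The effect of α-amanitin differed between the 2 two-cell sets for 36 of 40 members by limma's interaction test, each larger in R against RAm than in NT against Am, as it was for 44.5% of all genes. By the median of ratios it was larger for 20 members, against 21.3% of all genes, and smaller for 1. On the log2 scale the difference was 4.88 for Psma4, 3.13 for Psma5, 4.81 for Psma6, 3.48 for Psmb1, 4.48 for Psmb4, 4.89 for Psmb5, 5.12 for Psmb10, 2.80 for Psmc2, 3.31 for Psmd6, 2.76 for Psmd7, 3.85 for Psmd12 and 5.01 for Psmd14. Which set is early and which is late is not given in the sources used here.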

How the results depend on the processing

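In the two-cell comparison, 28 members were called higher and 0 lower with all libraries pooled, of 5953 genes higher and 1163 lower. Leaving out 1 library gave 17 (without RAm2) to 33 members called higher, 18 without RAm3, 0 lower, and a median log2 change of 1.373 to 1.824; all genes called higher ran from 4764 to 6959 and lower from 913 to 1362. Without the filter on low values 13 members were called, beside 5517 of 38827 genes. Scaling by the median of ratios called 3077 genes higher and 2318 lower, 14 members higher and 3 lower, with Psme2b at −0.832. Spike-in scaling called 10509 genes higher and 181 lower, with a members' median of 2.91. In NT and Am alone, 1814 genes were higher and 597 lower, 7 members were higher with a median of 0.342, and Psmb5 was at −0.178; spike-ins gave 110 genes lower and 18 members higher; the median of ratios gave 1083 genes higher, 1 member, a median of 0.044, and Psma4 at −0.284, Psmb4 at −0.305, Psmb5 at −0.49 and Psmb10 at −0.255. In R and RAm alone, 2353 genes were lower, the members' median was 2.676 and Psme2 was at 0.686; spike-ins gave 11588 genes higher, a median of 4.529, Psme2 at 2.546 and Psme4 at 1.36; the median of ratios gave 3929 genes and 2 members lower. The cause of these shifts was not tested. With the replicate number as a block the count was 25 members and 5438 genes higher. Deviations from the group mean correlated at 0.018 to 0.072 between same-numbered libraries and at −0.112 to 0.042 between the others of a set. These values do not settle whether the numbers pair libraries, and the main test used no block. With the set as a term 33 members and 6744 genes were called higher.

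In the four-cell comparison, 0 members were called under every alternative run. Genes called higher and lower were 673 and 59 with a pseudocount of 0.1 and 275 and 9 without the filter, and 211 were lower by the median of ratios, where the members' median was −0.166. Leaving out 1 library gave 284 (without S7) to 930 genes higher and 11 to 112 lower, against 1093 and 112 with all 6, and each library but S16 moved the first count by over 1.5 times, with a members' median of −0.001 to 0.209. No paired analysis was possible because the four-cell columns do not carry the replicate numbers of the labels and the replication columns share 1 number. In the replication experiment limma called 0 genes throughout; the members' median ran from −0.101 to 0.097 with 1 library left out and was −1.574 with spike-in scaling. Depth limits Psmb8, Psmb9 and Psmb11, which have few or 0 reads in most libraries.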
